A study of Mus musculus with 36 samples.

Results

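Livers of THRBKO mice were compared with livers of THRBWT mice at ZT18, the middle of the dark phase, when mice are active and feed. The comparison rests on 6 of the 36 libraries of the series, 3 per genotype, chosen by genotype and sampling time in the sample labels. Described are the 14193 protein-coding genes, of 22046 in the table, with at least 100 counts summed over all 36 libraries. THRBWT mice are heterozygous (THRB+/-) and THRBKO mice homozygous (THRB-/-) for the allele B6.129S1-Thrbtm1Df/J on the C57Bl/6NCrl background, so both groups carry at least 1 altered allele, and no THRB+/+ liver was used here. The allele impairs DNA binding by both isoforms of the receptor in every cell of the body, not in hepatocytes alone. All mice were males of 2 to 3 months, group-housed under 12 h light and 12 h darkness with chow and water freely available. Poly-A RNA of whole liver was sequenced from 3 mice per genotype at ZT2, ZT6, ZT10, ZT14, ZT18 and ZT22 (hours after lights on), and the 3 mice in each such set are lettered a to c.

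Thyroid hormone receptor beta is a nuclear receptor that binds triiodothyronine and sits on DNA with the retinoid X receptor, where it recruits coactivators with hormone and corepressors without it. In liver it is the main thyroid hormone receptor and is known to act on deiodination of the hormone, on lipid synthesis and oxidation, and on the conversion of cholesterol to bile acids. Many liver genes also follow the clock and the feeding rhythm, so genotypes are compared here within a sampling time.

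Total counts at ZT18 ranged from 29063273 to 34651267 per library. Levels are given as CPM (each count as a share of its library's total, on the usual CPM scale and with edgeR's TMM factors) and differences as log2 fold changes, THRBKO minus THRBWT, with the standard error (SE). The median log2 fold change of the protein-coding genes was -0.01, and 47.4% of them had a positive value. At ZT18, libraries of the same genotype differed by more than counting error, with chi-square values per gene of 32.7 or more. THRBWT library b stood apart. It took the extreme position on the first principal component of the 6 libraries, which held 29.1% of the variance, and had the highest summed level of Kupffer cell markers of all 36 libraries. All 9 tested hepatocyte markers were counted in every library, with a summed level from 86479 to 102486 CPM, and none of the 8 adipose and muscle markers reached 100 counts over the series. *Thrb* itself had 26.2, 26.5 and 28.4 CPM in THRBWT libraries and 31.9, 32.5 and 32 CPM in THRBKO libraries. These levels did not overlap, with a log2 fold change of 0.25 (SE 0.132, adjusted p = 0.931). The altered transcript is still counted, so this level gives no check of the genotype.

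Few genes passed the test at ZT18. By the quasi-likelihood test of edgeR, adjusted after Benjamini and Hochberg over all 17994 tested genes, 1 protein-coding gene of 14193 had an adjusted p under 0.05 (0.00705%), *Gm3839*, which was lower in THRBKO livers. Its levels were 4.24, 7.54 and 7.21 CPM in THRBWT libraries a, b and c and 0.928, 0.687 and 0.676 CPM in THRBKO libraries. Every THRBKO library lay below every THRBWT library, with an 8.28-fold lower level (log2 fold change -3.05, SE 0.513, adjusted p = 0.0112). *Gm3839* lies on chromosome 14 of GRCm38 from 11280735 to 11356726, 6.30 Mb from *Thrb*. Its transcript is 99.1% identical to that of *Gapdh*, a glycolytic enzyme gene on chromosome 6, over 1232 of 1712 bases, so its count is uncertain where reads could be split. *Gapdh* had 23.6, 23.6 and 20.4 CPM in THRBWT libraries and 24.3, 125 and 26.6 CPM in THRBKO libraries, so that 1 THRBKO library, b, stood far above the other 5. The call of *Gm3839* was lost in the fit with mice of the same letter as pairs (adjusted p = 0.0815) and without any single library other than THRBWT a, with adjusted p from 3.17e-05 to 0.236 over all alternatives.

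The other 3 of the 4 genes that passed among all 17994 (0.0222%) are not protein-coding, and all rose in THRBKO livers. *Gm10020*, a pseudogene, had 11.4, 12.8 and 11.4 CPM in THRBWT libraries and 26.8, 25.8 and 26.1 CPM in THRBKO libraries (log2 fold change 1.14, SE 0.0855, adjusted p = 1.1e-09). The pseudogene *Rpl15-ps2* had 2.77, 2.85 and 2.87 CPM in THRBWT and 5.82, 5.01 and 7.41 CPM in THRBKO libraries. Both are near copies of *Rpl15*, a ribosomal protein gene 0.23 Mb from *Thrb*, with 99.7% and 98.7% identity. *Rpl15* itself had 145, 138 and 127 CPM in THRBWT libraries and 133, 123 and 118 CPM in THRBKO libraries, and these overlapped (log2 fold change -0.13, SE 0.0700, adjusted p = 0.931). Reads of *Rpl15* and its copies could be split by the counting, and their part in these values was not tested. *9030619P08Rik*, a transcribed pseudogene on chromosome 15, had 12.5, 12.1 and 10.1 CPM in THRBWT libraries and 70.5, 76.3 and 61.1 CPM in THRBKO libraries, with no overlap (log2 fold change 2.58, SE 0.429, adjusted p = 0.0112). *Gm10020* passed under every alternative fit and with each library left out, whereas *Rpl15-ps2* and *9030619P08Rik* were lost without some single libraries, with adjusted p up to 0.485 and 0.143.

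With mice of the same letter as pairs, 3 protein-coding genes passed (0.0211%), *Dio1*, *Zkscan1* and *Tcp11l2*, and none of them passed without the block. *Dio1* encodes the deiodinase of liver and kidney that converts thyroxine to triiodothyronine and is a textbook target of the hormone. It had 151, 112 and 75.8 CPM in THRBWT libraries a, b and c and 67.9, 61.5 and 48.8 CPM in THRBKO libraries a, b and c. Every THRBKO liver lay below every THRBWT liver, and in both genotypes the level was highest in library a and lowest in library c. The log2 fold change was -0.93 (SE 0.344), with an adjusted p of 0.833 without and 0.0321 with the pairs. *Zkscan1*, a zinc finger transcription factor gene, had 24.6, 22.3 and 22.1 CPM in THRBWT libraries and 31.2, 35.1 and 35.3 CPM in THRBKO libraries, with no overlap (log2 fold change 0.56, SE 0.115). Its adjusted p was 0.133 without the pairs, 0.0489 with them and 0.0141 by DESeq2's Wald test. *Tcp11l2* had 5.02, 8.92 and 10.01 CPM in THRBWT libraries and 8.73, 16.7 and 20.2 CPM in THRBKO libraries. Its groups overlapped, while each THRBKO library lay above the THRBWT library of its letter (log2 fold change 0.93, SE 0.275, adjusted p = 0.698 without and 0.0321 with the pairs). DESeq2 called *Cyp3a25*, a cytochrome P450 gene of drug and steroid oxidation, at an adjusted p of 0.0449. Its levels were 630, 431 and 582 CPM in THRBWT libraries and 772, 836 and 1092 CPM in THRBKO libraries, with no overlap (log2 fold change 0.72, SE 0.165, adjusted p = 0.311 by edgeR). Over all alternatives the adjusted p ranged from 0.0141 to 0.812 for *Zkscan1*, from 0.0449 to 0.999 for *Cyp3a25* and from 0.0321 to 1.0 for both *Dio1* and *Tcp11l2*.

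The receptor recognises the half-site AGGTCA, often as a direct repeat with a gap of 4 bases. Promoter windows of 300 bases around the RefSeq transcription start (GRCm38.p6) are shown for the 4 genes that only the paired fit or DESeq2 called. Capitals mark AGGTCA, or TGACCT where the match is on the other strand. Each sequence is written 5′ to 3′ on the strand of the gene. The windows are chr5:138084834-138085133 (+) for *Zkscan1*, chr5:146009569-146009868 (-) for *Cyp3a25*, chr10:84576697-84576996 (+) for *Tcp11l2* and chr4:107307119-107307418 (-) for *Dio1*.
Zkscan1: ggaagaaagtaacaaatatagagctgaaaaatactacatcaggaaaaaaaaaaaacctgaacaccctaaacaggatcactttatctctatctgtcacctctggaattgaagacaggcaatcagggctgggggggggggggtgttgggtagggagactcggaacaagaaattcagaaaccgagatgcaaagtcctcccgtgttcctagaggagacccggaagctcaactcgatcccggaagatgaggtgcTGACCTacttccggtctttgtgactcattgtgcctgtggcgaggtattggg
Cyp3a25: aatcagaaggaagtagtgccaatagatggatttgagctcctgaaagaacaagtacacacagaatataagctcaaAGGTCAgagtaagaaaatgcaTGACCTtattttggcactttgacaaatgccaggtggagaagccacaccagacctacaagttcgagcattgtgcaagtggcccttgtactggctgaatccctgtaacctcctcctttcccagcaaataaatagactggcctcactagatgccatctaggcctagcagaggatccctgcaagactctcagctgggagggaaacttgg
Tcp11l2: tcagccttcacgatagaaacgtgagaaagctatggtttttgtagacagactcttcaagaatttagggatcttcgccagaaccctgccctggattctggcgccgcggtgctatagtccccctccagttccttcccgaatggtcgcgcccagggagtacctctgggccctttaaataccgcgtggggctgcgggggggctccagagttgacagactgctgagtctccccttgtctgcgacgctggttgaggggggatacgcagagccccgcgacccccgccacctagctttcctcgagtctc
Dio1: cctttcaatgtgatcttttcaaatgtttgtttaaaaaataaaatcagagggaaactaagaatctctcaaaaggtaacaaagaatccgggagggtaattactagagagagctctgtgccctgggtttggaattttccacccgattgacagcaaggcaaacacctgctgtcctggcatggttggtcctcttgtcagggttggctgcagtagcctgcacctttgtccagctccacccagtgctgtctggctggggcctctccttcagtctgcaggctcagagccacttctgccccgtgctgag
The window of *Zkscan1* held 1 match, across the start itself, and that of *Cyp3a25* held 2, on opposite strands at positions -176 and -155. Those of *Tcp11l2* and *Dio1* held none, which says only that these letters are not in these windows. The half-site was found on either strand in 16.3% of all 32851 promoter windows, and for 18.1% of the 27025 gene symbols in at least 1 window. Of the 24 protein-coding genes with the smallest p described next, 17 had a window and 6 of these held the half-site (*Cyp3a25*, *Foxn3*, *Ppp1r15a*, *Sec31b*, *Treh* and *Zkscan1*). The direct repeat, AGGTCA followed by AGGTCA after any 4 bases, was in 5 of all windows and in none of the 17, the E-box CACGTG was in 7.15% of all windows (8.09% of symbols) and in 1 of the 17 (*Pdp2*), and the D-box TTATGTAA was in 0.938% of all (1.11% of symbols) and in none of the 17.

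Without adjustment, 756 protein-coding genes had a p under 0.05 (5.33%), namely 351 with a higher level (2.47%) and 405 with a lower level (2.85%) in THRBKO livers. With mice of the same letter as pairs the share was 7.5%. The levels of the groups did not overlap for 718 genes in the higher direction (5.06%) and 745 in the lower (5.25%). An exact permutation test of 3 against 3 libraries cannot go below p = 0.10, its value for a full separation in either direction. The shares without overlap are thus about those that libraries with no genotype difference would give. A lack of overlap by itself marks no gene as changed. The 12 genes with the smallest p in each direction and a mean of at least 1 CPM are therefore given as values, and apart from *Gm3839* none of them passed the edgeR test.

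The 12 higher genes include *Zkscan1* and *Cyp3a25*, described above. *Pdp2*, whose product activates pyruvate dehydrogenase by removing phosphate, had 27.9, 27.0 and 29.8 CPM in THRBWT libraries and 38.1, 41.2 and 38.0 CPM in THRBKO libraries (log2 fold change 0.47, SE 0.113, adjusted p = 0.358). *Foxn3*, a forkhead repressor gene, had 35.7, 34.1 and 33.9 CPM in THRBWT against 47.6, 48.5 and 52.2 CPM in THRBKO libraries (log2 fold change 0.52, SE 0.123). Both groups were tight for these genes, with SDs of at most 2.45 CPM. *Rgs16*, a regulator of G protein signalling whose liver mRNA is induced by fasting, had 2.42, 1.38 and 2.37 CPM in THRBWT libraries and 6.40, 11.4 and 32.8 CPM in THRBKO libraries. Its log2 fold change was 3.05 (SE 0.804, adjusted p = 0.567), and the THRBKO libraries differed among themselves more than for the genes above. *Fbxo32*, a ubiquitin ligase gene induced by FOXO factors, had 0.912, 1.19 and 0.758 CPM in THRBWT and 1.06, 2.09 and 3.56 CPM in THRBKO libraries, and these overlapped (log2 fold change 1.22). Without THRBKO library a its log2 fold change was 1.56 (adjusted p = 0.0239), and without THRBKO library c it was 0.71 (adjusted p = 0.999). *Gch1*, the first enzyme of tetrahydrobiopterin synthesis, had 90.1, 93.8 and 82.1 CPM in THRBWT against 130, 138 and 185 CPM in THRBKO livers (log2 fold change 0.77). *Sec31b*, a COPII coat gene, *Ppp1r15a*, a stress-induced phosphatase subunit, *Iws1*, a factor of transcription elongation, *Plekhg3* and *Ctdsp2* had log2 fold changes from 0.37 to 0.58, all without overlap.

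The 12 lower genes begin with *Gm3839*, described above. Of the others, *Msr1*, the macrophage scavenger receptor, had 8.38, 12.9 and 8.63 CPM in THRBWT and 6.37, 5.92 and 6.06 CPM in THRBKO libraries (log2 fold change -0.71). *Saa3*, a serum amyloid gene, had 36.9 CPM in THRBWT library b and from 4.29 to 5.02 CPM in the other 5, so that its log2 fold change of -1.79 became -0.08 without that library. *Tgtp2*, an interferon-induced GTPase gene, had 1.65, 2.41 and 6.72 CPM in THRBWT libraries and 1.44, 1.31 and 1.35 CPM in THRBKO libraries, and its value of -1.39 became -0.58 without THRBWT library c. *Irf5*, a transcription factor of innate immunity, had 14.5, 17.3 and 13.9 CPM in THRBWT against 9.92, 7.69 and 7.50 CPM in THRBKO livers. Its value of -0.86 stayed between -1.002 and -0.76 with each library left out, and 14.1% of its exon bases overlap *Tnpo3* on the opposite strand, which this library type cannot separate. *Samhd1*, which degrades deoxynucleotides, had 26.0, 30.3 and 29.8 CPM in THRBWT and 23.8, 21.5 and 22.0 CPM in THRBKO libraries (log2 fold change -0.35).

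*Acsm2*, a medium-chain acyl-CoA synthetase gene that the study also chose on these mice, had 3.86, 2.95 and 1.81 CPM in THRBWT and 1.02, 1.15 and 0.647 CPM in THRBKO libraries (log2 fold change -1.61, SE 0.410, adjusted p = 0.509). *Treh*, the trehalase gene, had 1.75, 1.84 and 0.922 CPM in THRBWT and 0.576, 0.524 and 0.441 CPM in THRBKO libraries. Its log2 fold change was -1.55 (SE 0.347, adjusted p = 0.247). *Ptpn1*, a phosphatase that acts on the insulin receptor, had 30.5, 33.8 and 29.8 CPM in THRBWT against 26.1, 25.4 and 25.9 CPM in THRBKO livers (log2 fold change -0.28). These 3 genes showed no overlap between genotypes. *Arhgap26*, *Cotl1*, an actin-binding protein gene, and *Cdkn2aipnl* had log2 fold changes of -0.78, -0.60 and -0.34. In all, 22 of the 24 named genes did not overlap between genotypes, the exceptions being *Fbxo32* and *Saa3*. The 24 were chosen by small p in these same libraries, so this count follows largely from the choice. Of all protein-coding genes, 5.06% did not overlap in the higher and 5.25% in the lower direction.

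**Figure D1:**
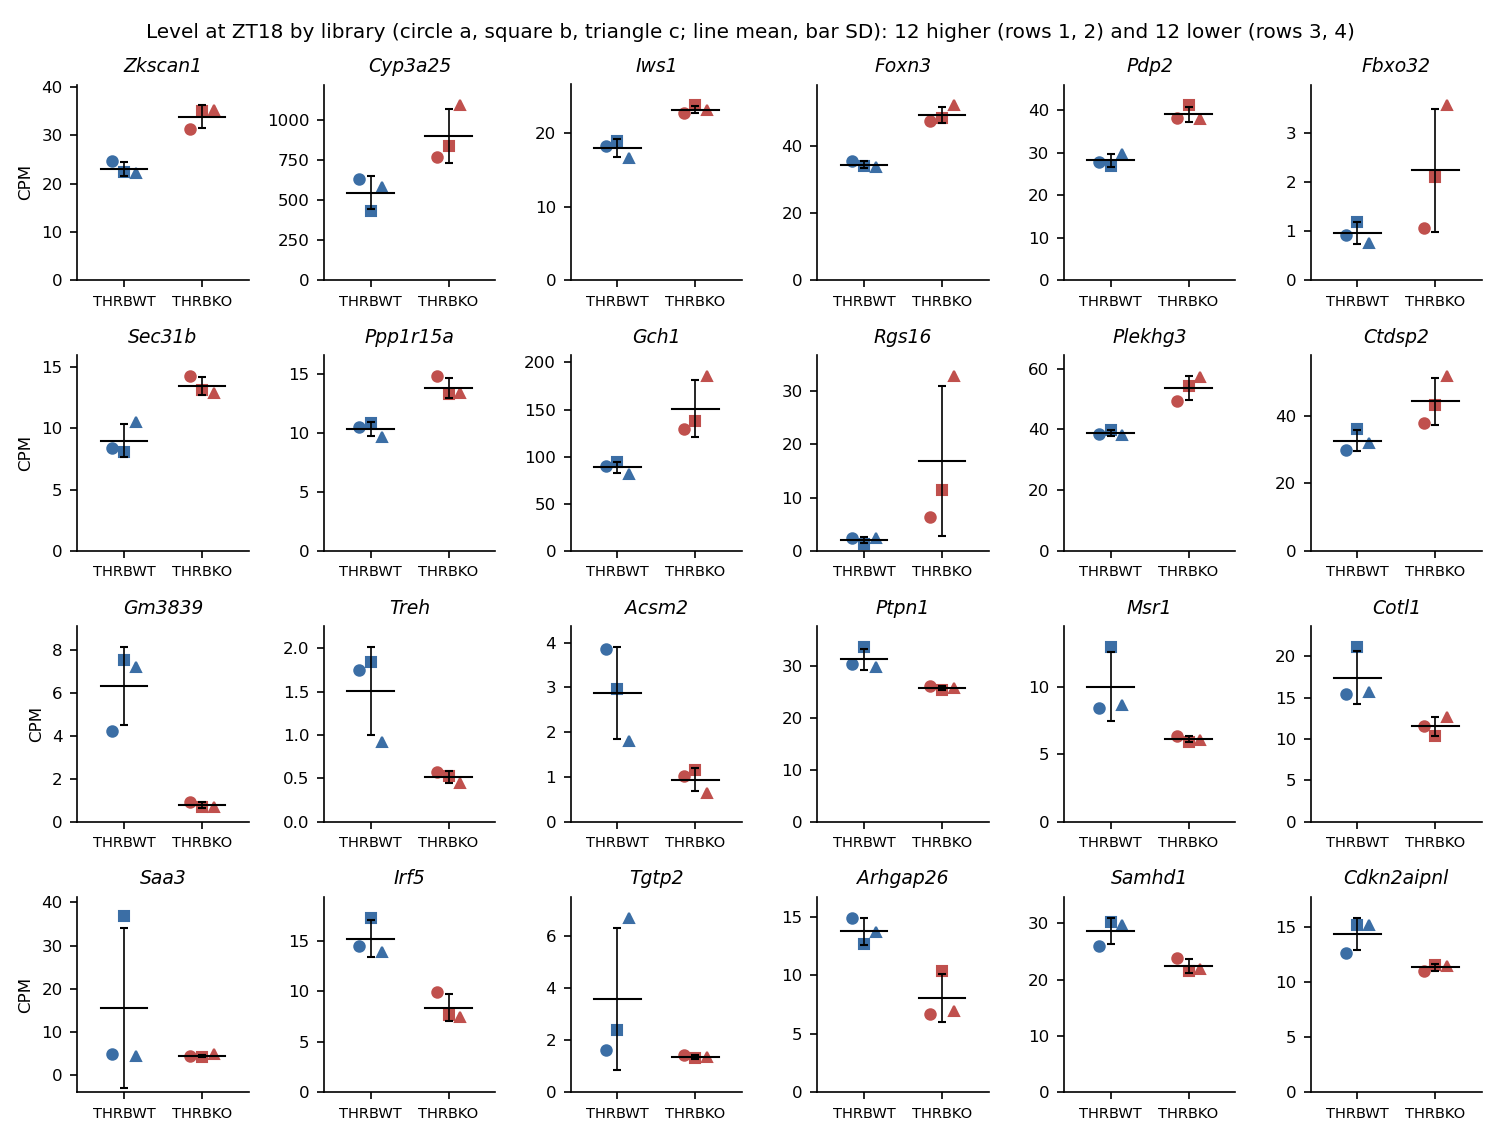
CPM (y axis, from 0 except for Saa3, where the SD bar reaches below 0) at ZT18 of the 24 named genes in THRBWT (blue) and THRBKO (red) libraries, with letters a, b and c as circle, square and triangle, the mean as a line and the SD as a bar. The genotypes overlap only for Fbxo32 and Saa3, and Saa3 and Tgtp2 each have 1 THRBWT library far above the rest.

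The same genotype difference was then measured in the 30 libraries of the other 5 sampling times, which share no mouse with ZT18. Averaged over those times, 76 protein-coding genes passed the edgeR test (0.535%), with 36 genes higher (0.254%) and 40 lower (0.282%) in THRBKO livers. At ZT18, 74 of the 76 (97.4%) had the same direction, against 55.3% of all protein-coding genes. For 40 of the 76 the libraries at ZT18 did not overlap in that direction, against 5.06% of all protein-coding genes in the higher and 5.25% in the lower direction. At ZT18, 38 of the 76 (50%) had an unadjusted p under 0.05, against 5.33% of all. The median absolute log2 fold change of the 76 was 0.36 at ZT18 and 0.39 over the other times. With the pairs, 213 protein-coding genes passed over the other times (1.5%), and 148 by DESeq2 (1.04%). *Gm3839*, *Pdp2*, *Foxn3*, *Gch1*, *Acsm2* and *Arhgap26* were the 6 of the 24 named genes that passed there in the same direction as at ZT18. *Dio1* also passed there, at a log2 fold change of -0.97 (SE 0.154, adjusted p = 7.0e-04). Its mean was lower in THRBKO livers at each of the other 5 times.

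Further genes called over the other times were close in size at ZT18. *Slc46a3*, a lysosomal transporter gene, had 61.3, 44.5 and 46.2 CPM in THRBWT and 35.0, 35.8 and 36 CPM in THRBKO libraries at ZT18, with log2 fold changes of -0.51 at ZT18 and -0.50 over the other times. *Papss2*, which makes the sulfate donor for sulfation, had 167, 143 and 168 CPM in THRBWT and 203, 213 and 265 CPM in THRBKO livers, with 0.51 at ZT18 and 0.45 over the other times. *Prodh*, the first enzyme of proline breakdown, had 244, 200 and 265 CPM in THRBWT and 145, 166 and 190 CPM in THRBKO livers, with -0.50 at ZT18 and -0.44 over the other times. The genotypes did not overlap at ZT18 for any of these 3. *Lepr*, the leptin receptor gene, had log2 fold changes of 1.36 at ZT18 and 0.97 over the other times. The 2 genes with opposite signs were *Pdzd4* (0.39 at ZT18 and -0.75 elsewhere) and *Mospd1* (-0.02 and 0.21). *Cyp7a1*, the rate-limiting enzyme of bile acid synthesis, passed over the other times (log2 fold change 0.85, adjusted p = 0.0463), whereas it had 0.11 (SE 0.446) at ZT18. It had 140, 182 and 99.4 CPM in THRBWT and 145, 162 and 147 CPM in THRBKO libraries at ZT18, which overlapped.

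**Figure D2:**
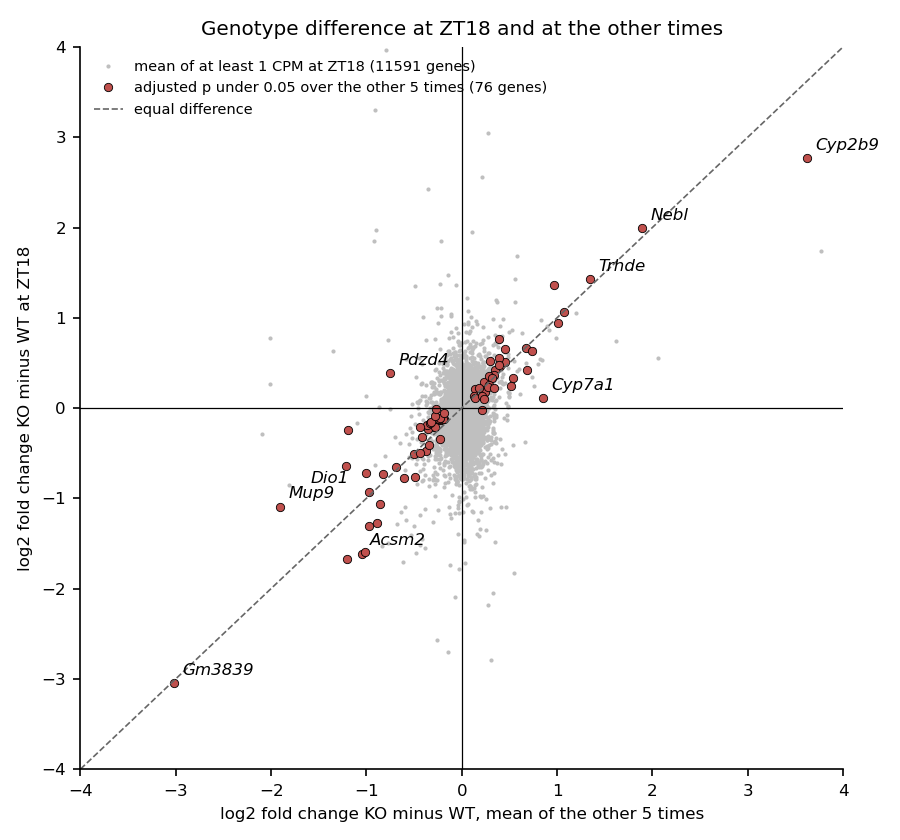
Log2 fold change at ZT18 (y axis) against the mean of the other 5 sampling times (x axis), with 1 grey dot for each of 11591 protein-coding genes with a mean of at least 1 CPM at ZT18 and red dots for the 76 genes called over the other times. Of the red dots, 74 lie in the same direction on both axes, and grey dots spread more widely along the ZT18 axis.

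No gene passed the test of the difference between ZT18 and the mean of the other 5 times, by edgeR, by DESeq2 or with the pairs (0 of 14193 protein-coding genes each). The smallest adjusted p of edgeR was 1.0. Unadjusted, 563 protein-coding genes had a p under 0.05 (3.97%), 237 with a more positive difference at ZT18 (1.67%) and 326 with a more negative one (2.30%), while 4.02% had one by DESeq2 and 5.63% with the pairs. The smallest unadjusted p in each direction belonged to *Zkscan1*, with a log2 fold change of 0.56 at ZT18 and -0.00 elsewhere (unadjusted p of the difference 1.1e-04), and to *Samhd1*, with -0.35 and 0.10 (unadjusted p = 3.1e-04). *Ankzf1*, *Nt5c2*, *Zfp740* and *Fbxo32* came next in the positive direction and *Ptpn1*, *Tgtp2*, *Rcan1* and *Gbp2* in the negative one. *Zkscan1* was lower in THRBWT livers at ZT18, at 23.0 ± 1.36 CPM (SD, n = 3), than at any of their other 5 times, where means ran from 26.7 to 30.6 CPM. Its THRBKO mean at ZT18 was 33.9 ± 2.30 CPM (SD, n = 3), against 26.4 to 31.2 CPM at the other times. Between ZT18 and the other 5 times, then, no protein-coding gene can be said to differ in its genotype difference.

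Among 29 genes of thyroid hormone receptors, cofactors, transporters, deiodinases and carriers, none passed the test, and 4 were higher and 1 lower at an unadjusted p under 0.05. The shares over all protein-coding genes were 2.47% higher and 2.85% lower. The other receptor gene, *Thra*, had 11.4, 12.7 and 15.5 CPM in THRBWT and 10.9, 13.8 and 13.7 CPM in THRBKO livers (log2 fold change -0.04, SE 0.153). *Crebbp*, a coactivator gene, had 18.7, 19.5 and 18.8 CPM in THRBWT and 22.1, 21.4 and 23.8 CPM in THRBKO libraries, with no overlap (log2 fold change 0.24, SE 0.0808, unadjusted p = 0.00563). *Trhde*, the enzyme that degrades thyrotropin-releasing hormone, had 0.807, 0.813 and 0.659 CPM in THRBWT against 2.02, 2.39 and 1.76 CPM in THRBKO livers. Its log2 fold change of 1.43 (SE 0.536, adjusted p = 0.837) was near that of 1.35 over the other times, where it passed. *Slco1a4*, an organic anion transporter gene, had 42.8, 41.6 and 40.8 CPM in THRBWT and 56.1, 49.9 and 93.3 CPM in THRBKO livers.

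Of 36 textbook thyroid hormone targets of liver, none passed the test, 24 had a positive and 12 a negative log2 fold change, and the median was 0.10. At an unadjusted p under 0.05, 5 were higher and 1, *Dio1*, was lower, and with the pairs 8 were higher and 1 lower. Of all protein-coding genes, 47.4% had a positive value, and 2.47% were higher and 2.85% lower at that threshold. With the pairs, 7.5% of all were below it in either direction. *Me1*, malic enzyme, which supplies NADPH for fatty acid synthesis, had 252, 269 and 451 CPM in THRBWT and 476, 559 and 777 CPM in THRBKO libraries, with no overlap (log2 fold change 0.90, SE 0.293, adjusted p = 0.744). *Mlxipl*, the carbohydrate response element-binding protein gene, had 561, 460 and 581 CPM in THRBWT and 694, 712 and 690 CPM in THRBKO libraries, also without overlap (log2 fold change 0.39, SE 0.123, adjusted p = 0.711). Over the other times these values were 0.23 for *Me1* and 0.00 for *Mlxipl*, neither past the threshold. *Gpd2*, mitochondrial glycerol-3-phosphate dehydrogenase, had 0.42 at ZT18 and passed over the other times at 0.35 (adjusted p = 0.0260). Without THRBKO library c, the median of the 36 targets was -0.00.

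No gene of the lipid lists passed the test. Over all protein-coding genes, 47.4% had a positive log2 fold change and 5.33% an unadjusted p under 0.05. Of 25 genes of de novo lipogenesis and desaturation, 19 had a positive log2 fold change, with a median of 0.22 at ZT18 and 0.00 over the other times. Only *Me1* and *Mlxipl* had an unadjusted p under 0.05, and *Acaca*, acetyl-CoA carboxylase, had 96.8, 93.0 and 105 CPM in THRBWT against 129, 122 and 156 CPM in THRBKO livers (log2 fold change 0.46, SE 0.227, adjusted p = 0.915). Without THRBWT library c the median became 0.47. With the pairs, 7 of the 25 were higher at an unadjusted p under 0.05 and none lower, against 7.5% of all protein-coding genes in either direction. Of 25 genes of cholesterol synthesis and uptake, 15 were positive (median 0.10), and none had an unadjusted p under 0.05. Of 28 bile acid genes, 21 were positive (median 0.11), among them *Cyp8b1*, which sets the share of cholic acid, with 317, 269 and 438 CPM in THRBWT and 459, 472 and 700 CPM in THRBKO livers (log2 fold change 0.67, SE 0.372). At an unadjusted p under 0.05, 1 bile acid gene was higher without the pairs and 5 with them. Of 41 genes of fatty acid oxidation and ketogenesis, 29 were positive (median 0.05) and 3 had an unadjusted p under 0.05, all higher in THRBKO livers, against 5 higher and 1 lower with the pairs. Among them was *Abcd2*, a peroxisomal fatty acid transporter gene, with 7.23, 12.8 and 10.4 CPM in THRBWT and 17.9, 16.5 and 29.3 CPM in THRBKO libraries (log2 fold change 1.06, SE 0.480, adjusted p = 0.909).

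The study chose 3 lists of lipid genes on these same mice, so their direction is not independent evidence. Some of their members, such as *Abcd2*, *Acsm2* and *Abhd6*, also count in other lists here, and the same limit holds for them there. All 9 cholesterol and bile acid genes (median 0.19) and all 7 fatty acid and beta-oxidation genes (median 0.21) had a positive log2 fold change at ZT18. All 9 acyl-CoA and fatty acid transport genes had a negative one (median -0.14). None of these genes passed the test at ZT18. In the last list *Abhd6*, a monoacylglycerol lipase gene 9.60 Mb from *Thrb*, had 51.1, 44.0 and 42.2 CPM in THRBWT and 33.1, 34.9 and 30.9 CPM in THRBKO libraries, with no overlap (log2 fold change -0.48, SE 0.162).

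**Figure D3:**
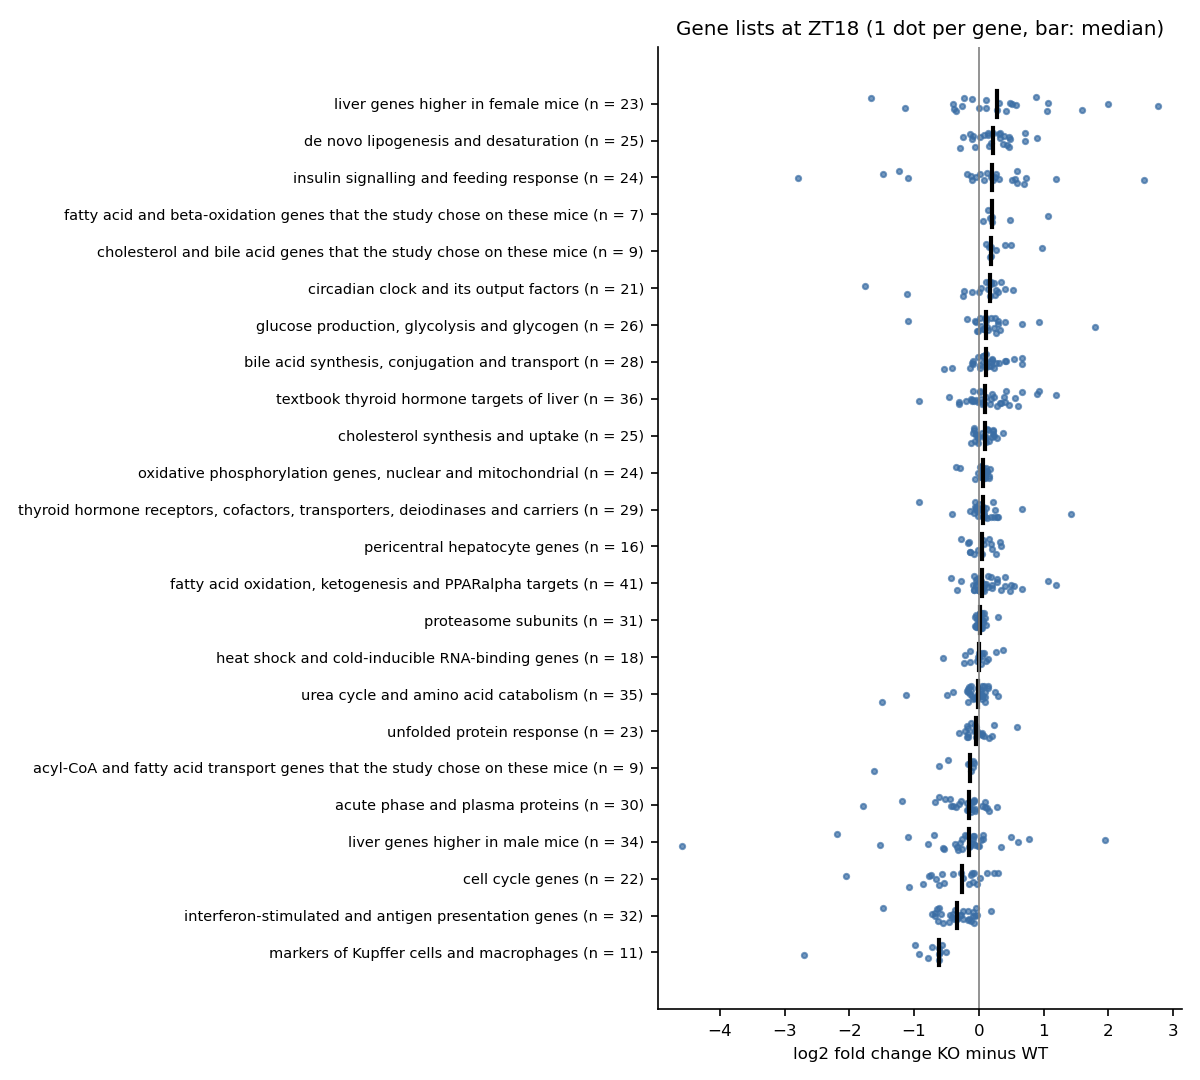
Log2 fold change at ZT18 (x axis) of the members of 24 gene lists (rows), with 1 dot per gene and the median as a bar. The medians lie between -0.62 for Kupffer cell and macrophage markers and 0.28 for liver genes higher in female mice, and most lists straddle 0.

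Genes of the fasting and insulin response held some of the largest values, none past the threshold. *Igfbp1*, a secreted binding protein that insulin represses, had 5.19, 6.56 and 14.5 CPM in THRBWT libraries a, b and c and 23.2, 57.4 and 73.8 CPM in THRBKO libraries. All THRBKO livers lay above all THRBWT livers, with a 5.88-fold higher level (log2 fold change 2.56, SE 0.781, adjusted p = 0.706). At the other times the sign varied, with log2 fold changes of 0.62 at ZT2, -1.19 at ZT6, 0.19 at ZT10, 0.69 at ZT14 and 0.77 at ZT22, and the difference between ZT18 and their mean was 2.34 (SE 0.835, unadjusted p = 0.00890). *Sesn2*, a stress-induced regulator of mTORC1, had 5.86, 4.93 and 5.40 CPM in THRBWT and 7.23, 9.03 and 10.5 CPM in THRBKO libraries (log2 fold change 0.73). *Foxo1*, the transcription factor that insulin excludes from the nucleus, had 21.4, 24.8 and 19.2 CPM in THRBWT and 24.8, 26.0 and 27.9 CPM in THRBKO libraries, which touched (log2 fold change 0.27). *G6pc* and *Pck1*, enzymes of glucose production, had log2 fold changes of 0.93 (SE 0.548) and 0.66 (SE 0.432), both without overlap. Neither had an unadjusted p under 0.05 by edgeR. The genes named here were all higher in THRBKO livers, so the lower genes counted below are not among them. Negative values were held by 8 genes of the insulin and feeding list and 6 of the glucose list. Of the 24 genes of insulin signalling and feeding, 16 were positive (median 0.21, and 0.05 without THRBWT library c), and 4 were higher and 2 lower at an unadjusted p under 0.05. The shares over all protein-coding genes were 47.4% positive, and 2.47% higher and 2.85% lower at that threshold. Of 26 genes of glucose production, glycolysis and glycogen, 20 were positive (median 0.12), and without THRBKO library c 15 were (median 0.01). Of these 26, 1 had an unadjusted p under 0.05 (lower), and with the pairs 3 were higher and 1 lower.

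Of 16 genes of growth hormone and IGF signalling, 4 were higher and 1 lower at an unadjusted p under 0.05, none passed the test, and the median log2 fold change was -0.06. Over all protein-coding genes, 47.4% had a positive value, and 2.47% were higher and 2.85% lower at that threshold. *Cish*, a feedback inhibitor that STAT5 induces, had 45.8, 41.7 and 11.1 CPM in THRBWT and 6.50, 4.25 and 3.47 CPM in THRBKO libraries (log2 fold change -2.80, SE 1.22, adjusted p = 0.906). *Bcl6*, a repressor that STAT5 lowers, had 37.7, 17.5 and 17.3 CPM in THRBWT and 82.5, 96.3 and 102 CPM in THRBKO libraries (log2 fold change 1.96, SE 0.921, adjusted p = 0.915). Neither gene overlapped between genotypes, and both had SEs far above the median SE of 0.140 over genes with at least 1 CPM. Over the other times the values were 0.31 for *Cish* and 0.11 for *Bcl6*. *Stat5b* had 43.6, 44.8 and 48.3 CPM in THRBWT and 47.4, 55.9 and 73.1 CPM in THRBKO livers, which overlapped. Of 34 liver genes higher in male mice, 25 had a negative log2 fold change (median -0.15 at ZT18 and -0.30 over the other times), and of 23 tested genes higher in female mice 14 had a positive one (median 0.28, and 0.45 over the other times). Without THRBKO library c, the male-biased genes were split 17 to 17 (median -0.03) and the female-biased genes 11 to 11 (median 0.00). None passed at ZT18, while 3 female-biased and 1 male-biased gene passed over the other times, among them *Cyp2b9*, with 0.316, 0.00 and 1.58 CPM in THRBWT and 8.13, 1.15 and 3.29 CPM in THRBKO livers at ZT18.

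Of 21 genes of the circadian clock and its output factors, 16 had a positive log2 fold change, against 47.4% of all protein-coding genes. The median of the list was 0.17 (-0.03 over the other times), and only *Bhlhe41* had an unadjusted p under 0.05. This repressor of the clock had 2.46, 1.95 and 1.68 CPM in THRBWT and 1.09, 1.28 and 0.470 CPM in THRBKO livers (log2 fold change -1.11, SE 0.449, adjusted p = 0.871). Of its exon bases, 19.0% overlap a gene on the opposite strand. *Cry2*, a core repressor, had 45.5, 41.1 and 38.6 CPM in THRBWT and 47.3, 51.0 and 49.9 CPM in THRBKO livers (log2 fold change 0.24, SE 0.142). *Npas2*, a partner of BMAL1, was at 2.50 CPM in THRBWT library c and between 0.0271 and 0.360 CPM in the other 5 libraries. Its log2 fold change of -1.76 became 1.96 without that library.

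**Figure D4:**
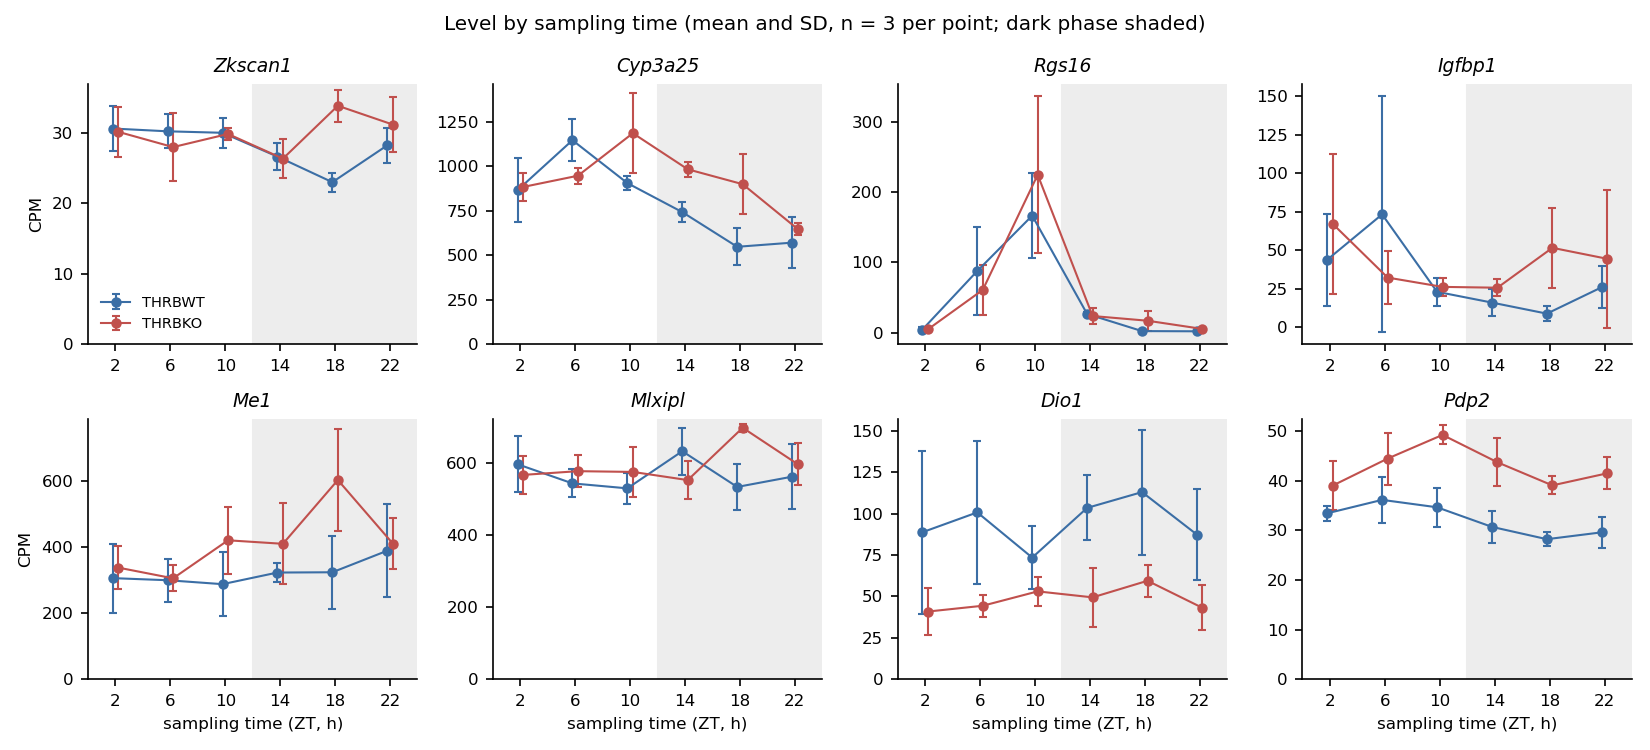
CPM (y axis) of 8 genes by sampling time (x axis, ZT in hours) in THRBWT (blue) and THRBKO (red) livers, as mean and SD of 3 mice per point, with the dark phase shaded. Dio1 and Pdp2 differ between genotypes in the same direction at all 6 times, whereas the means of Zkscan1, Igfbp1 and Mlxipl change order between times.

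Markers of Kupffer cells and macrophages had lower mean levels in THRBKO livers, and the size of this difference rested on THRBWT library b. In whole tissue, fewer cells of a type and less RNA per cell cannot be told apart. The summed level of the 11 markers was 340, 789 and 367 CPM in THRBWT libraries a, b and c and 310, 283 and 316 CPM in THRBKO libraries. All 11 had a negative log2 fold change (median -0.62), 10 of them at an unadjusted p under 0.05, and 6 did not overlap. None of the 11 passed the adjusted test. Of all protein-coding genes, 2.85% were lower at that unadjusted p and 5.25% did not overlap in that direction. *Marco*, a macrophage scavenger receptor, had 65.7 CPM in THRBWT library b and from 3.20 to 5.16 CPM in the other 5 libraries. *Clec4f*, a lectin of Kupffer cells, had 95.9, 162 and 92.6 CPM in THRBWT and 89.3, 71.2 and 86.9 CPM in THRBKO livers (log2 fold change -0.50). *C1qa*, a complement gene of macrophages, had 43.2, 79.4 and 48.9 CPM in THRBWT and 40.4, 36.4 and 36.9 CPM in THRBKO livers (log2 fold change -0.60). Without THRBWT library b, the 11 values were still all negative, with a median of -0.23, and none had an unadjusted p under 0.05. With the pairs and all libraries, 6 of the 11 had one. Over the other 5 times the median was 0.04. The same library had the second highest summed level of the 9 sinusoidal endothelial markers among the 36, at 277 CPM against 193 and 201 CPM in THRBWT libraries a and c, while the THRBKO libraries ranged from 185 to 245 CPM.

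Interferon-stimulated and antigen presentation genes showed a like pattern with another library. Of 32 genes, 31 had a negative log2 fold change (median -0.33, and 0.09 over the other times), 11 at an unadjusted p under 0.05 and 7 without overlap, and none passed the adjusted test. The shares over all protein-coding genes in that direction were 2.85% and 5.25%. *Gbp2*, a guanylate-binding protein gene, had 2.95, 5.83 and 20.8 CPM in THRBWT libraries a, b and c and 3.30, 2.88 and 4.38 CPM in THRBKO libraries (log2 fold change -1.48, and -0.32 without THRBWT library c). *Igtp*, an interferon-induced GTPase gene, had 30.6, 30.9 and 74.4 CPM in THRBWT and 29.8, 24.1 and 28.4 CPM in THRBKO livers (log2 fold change -0.72, and -0.16 without library c). *Irf7*, a transcription factor of the interferon response, had 31.1, 54.8 and 56.3 CPM in THRBWT and 24.6, 24.7 and 39.5 CPM in THRBKO livers (log2 fold change -0.68, and -0.54 without library c). *Tap1*, a peptide transporter for antigen presentation, had 25.0, 24.9 and 44.6 CPM in THRBWT and 20.2, 21.1 and 23.3 CPM in THRBKO livers, which did not overlap. Without THRBWT library c, 25 of the 32 values were negative, with a median of -0.18, and none had an unadjusted p under 0.05. Without THRBWT library b, 29 were negative, with a median of -0.26, and 9 were lower at that p. Without THRBWT library a, 31 were negative, with a median of -0.49, and 12 were lower at that p. Relative to the THRBWT mean, the mean level of the 32 genes on the log2 scale was -0.36, 0.05 and 0.31 in THRBWT libraries a, b and c. In THRBKO libraries a, b and c it was -0.35, -0.32 and -0.27, so THRBWT library a lay at the THRBKO level.

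**Figure D5:**
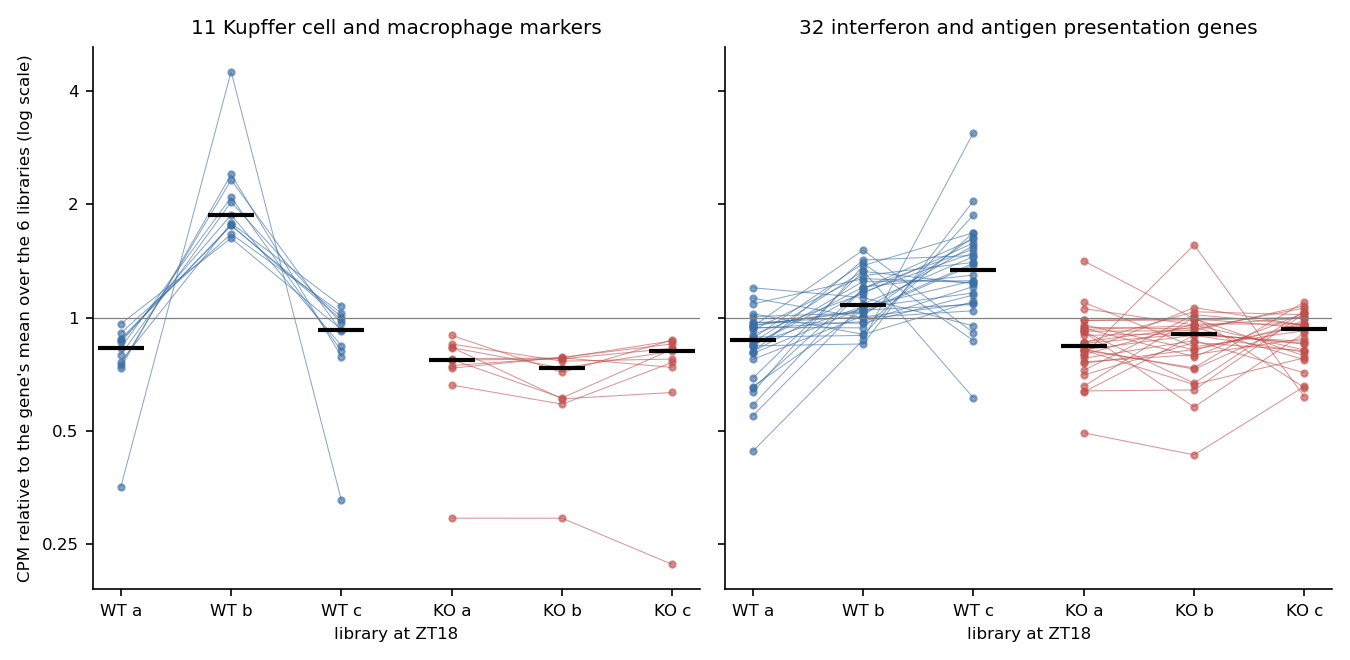
CPM relative to each gene's mean over the 6 libraries at ZT18 (y axis, log scale) of 11 Kupffer cell and macrophage markers (left) and 32 interferon and antigen presentation genes (right) by library (x axis), with 1 thin line per gene and genotype and the median as a black bar. THRBWT library b is highest for all 11 markers on the left, and THRBWT library c has the highest median on the right.

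Of 30 acute phase and plasma protein genes, 24 had a negative log2 fold change (median -0.14) and 4 an unadjusted p under 0.05, all 4 lower. Over all protein-coding genes, 47.4% had a positive value and 2.85% were lower at that threshold. *Itih3*, a plasma inhibitor gene, had 686, 881 and 753 CPM in THRBWT and 440, 695 and 620 CPM in THRBKO livers, and *Saa4* had 297, 300 and 200 CPM in THRBWT and 206, 214 and 161 CPM in THRBKO livers. Both overlapped, and without THRBWT library b none of the 30 was lower at an unadjusted p under 0.05 and the median was -0.05. Of 22 cell cycle genes, 18 were negative (median -0.26, -0.04 without THRBWT library b, -0.50 without THRBWT library a and -0.49 without THRBKO library a). *Cdkn1a*, a cell cycle inhibitor, had 8.03, 20.8 and 14.9 CPM in THRBWT and 5.70, 7.17 and 7.91 CPM in THRBKO livers, which did not overlap (log2 fold change -1.08, SE 0.503). *Myc* was at 44.6 CPM in THRBWT library a and from 4.52 to 9.79 CPM in the other 5.

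Several groups had medians near 0. The median log2 fold change was 0.01 for 18 heat shock genes, -0.04 for 23 genes of the unfolded protein response, 0.05 for 16 pericentral and 0.03 for 14 periportal genes, 0.06 for 24 genes of oxidative phosphorylation and 0.02 for 31 proteasome subunits. Of the 24 oxidative phosphorylation genes, 20 had a positive value (83.3%, against 47.4% of all protein-coding genes), and 10 had one without THRBWT library b. Among these lists, 1 periportal gene (*Ctsc*) and 1 proteasome gene (*Psmb5*) had an unadjusted p under 0.05, both higher in THRBKO livers. The values of the unfolded protein response genes depended on single libraries. Relative to the THRBWT mean, their mean level on the log2 scale was 0.47, -0.23 and -0.24 in THRBWT libraries a, b and c and 0.40, -0.16 and -0.28 in THRBKO libraries a, b and c, so that library a was the highest of both genotypes. Their median became 0.25, with 20 of 23 positive, without THRBWT library a and -0.24, with 21 negative, without THRBKO library a. That of heat shock genes became 0.13, with all 18 positive, without THRBWT library a. The 35 genes of the urea cycle and amino acid catabolism had a median of -0.02, with *Prodh* lower and *Otc*, ornithine transcarbamylase, higher at an unadjusted p under 0.05. *Otc* had 436, 358 and 471 CPM in THRBWT and 503, 514 and 492 CPM in THRBKO libraries (log2 fold change 0.25, SE 0.0979).

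No member of the remaining lists passed the test. The share over all protein-coding genes was 5.33% at an unadjusted p under 0.05 by edgeR, and 47.4% had a positive value. Of 30 genes of xenobiotic metabolism, 23 had a positive log2 fold change (median 0.17) and 3 a p under 0.05, all higher, among them *Cyp3a25*, against 6 higher and 1 lower with the pairs. Of 17 glucocorticoid targets (median 0.23), 2 were higher and 2 lower at that threshold, with log2 fold changes of 1.17 for *Gadd45b* and -0.68 for *Errfi1*. Of 21 acyl-CoA synthetase, thioesterase and related genes (median 0.07), 3 were lower, *Acsm2*, *Abhd6* and *Acot6*, the last at -0.84, and with the pairs 2 were higher and 3 lower. The study also named *Acsm2*, *Abhd6* and *Acot6* as lower on these same mice, so their direction is not independent evidence. The median was -0.05 for 19 lipid droplet genes and -0.02 for 23 immediate early genes, with 1 higher gene in each, *Lpin2* and *Fosl2*. Markers of other cells had medians of -0.07 (10 stellate cell genes), -0.24 (7 cholangiocyte genes), -0.10 (11 lymphocyte genes), -0.45 (3 neutrophil genes) and 0.02 (6 blood genes), and no member had a p under 0.05. Negative values were held by 7 stellate cell, 6 cholangiocyte, 10 lymphocyte, 2 neutrophil and 3 blood genes. Of the pancreas markers 2 were tested, with a summed level from 17.4 to 32.9 CPM.

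Genes near *Thrb* were counted apart, since sequence linked to a targeted allele can stay with it in crosses. Of 149 tested protein-coding genes within 20 Mb of *Thrb* on chromosome 14, 1 passed at ZT18 (*Gm3839*) and 12 had an unadjusted p under 0.05 (8.05%), against 5.30% of the protein-coding genes elsewhere. With the pairs, 12 of the 149 were higher and 8 lower at that threshold, against 7.5% of all protein-coding genes in either direction. Of these 149, 6 passed over the other 5 times, and all 6 had the same direction at ZT18. *Nid2*, a basement membrane gene 1.71 Mb from *Thrb*, had 4.67, 9.27 and 6.32 CPM in THRBWT and 2.72, 3.47 and 3.50 CPM in THRBKO libraries (log2 fold change -1.07, SE 0.316, adjusted p = 0.698). *Nkiras1*, a regulator of NF-kappaB 0.23 Mb from *Thrb*, had 36.3, 27.5 and 35.0 CPM in THRBWT and 46.2, 41.6 and 37.6 CPM in THRBKO libraries (log2 fold change 0.35, SE 0.107, adjusted p = 0.711). Neither overlapped, and the part of neighbouring sequence in these values was not tested.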

How the data were processed

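The raw counts per gene were deposited by the authors, who aligned non-directional paired-end poly-A reads to GRCm38 with HISAT2 and counted them with FeatureCounts. Versions are not given in the sources used here, and reads of a gene and its antisense partner cannot be told apart. All samples have their group from the labels. Of 54532 genes, 17994 with at least 100 counts over 36 libraries were tested with the quasi-likelihood test of edgeR 4.0.16 (R 4.3.3, TMM), in 1 model of 12 group means, so that the spread is shared by all groups. Contrasts were the genotype difference at ZT18, its mean over the other 5 times, and the difference between these. P-values were adjusted by Benjamini-Hochberg over all 17994 genes.

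Alternatives were DESeq2 1.42.0, size factors, robust fitting, other filters, the ZT18 libraries alone, each ZT18 library left out, and mice of the same letter as pairs. The letters were taken to pair the mice because the deviations of same-letter libraries at ZT18 correlated at 0.261, 0.197 and 0.228, against -0.161 to -0.0751 for other letters. Deviations were taken from each group's mean, so positive same-letter values push the other-letter values below 0. The pairs were thus chosen on these same counts, and calls made only with the pairs are no independent support. In a like measure over all 6 sampling times, 16 of 18 same-letter pairs had a correlation over 0.1, with a range from -0.0696 to 0.413. The labels do not say what a letter marks.

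The 12 protein-coding genes of smallest p in each direction with a mean of at least 1 CPM were named, since fewer passed, together with up to 4 members of smallest p from each list and the 5 of smallest p in each direction of the difference. Other genes were named after their values were seen. Members and lists were chosen with earlier results of these data known. The script was tested on simulated counts. Near-identical transcripts were found with BLAST 2.17.0 in GENCODE M21, and promoters are RefSeq's (GRCm38.p6).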

Additional observations from a re-analysis of the deposited data

Results flagged for a closer look

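Among the genes that are not protein-coding, and so lie outside the comparison of protein-coding genes, 3 pseudogenes were higher in THRBKO livers at ZT18 by edgeR's quasi-likelihood test, and a signal there is what marked them. The log2 fold changes were 2.58 for *9030619P08Rik*, 1.14 for *Gm10020* and 1.10 for *Rpl15-ps2*, higher in 3 of 3 THRBKO libraries than in any THRBWT library. Over the other 5 times the values were 2.77, 1.04 and 0.95, and all 3 passed the test there.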

How the results depend on the processing

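The count of genes past the threshold at ZT18 was 4, and it was 8 by DESeq2 and 8 with same-letter mice as pairs (the replicate block). With 1 library left out it ranged from 1 (without THRBWT b or c) to 3 (without THRBKO a), and it was 2 without THRBKO b, THRBKO c or THRBWT a. For protein-coding genes the count was 1 in the main test, 3 by DESeq2, 3 with the pairs and from 0 to 1 with 1 library left out, where *Fbxo32* took the place of *Gm3839* without THRBKO a. Over the other 5 times, 93 genes passed, against 174 by DESeq2 and 244 with the pairs, and 76 protein-coding genes, against 148 and 213. The cause was not tested. The difference between ZT18 and the other times gave 0 genes under every alternative. Of the alternative values of *Thrb* and the 24 genes of smallest p, 315 kept their direction and their side of the threshold, 4 passed it and 6 lost it, and none reversed. Outside these, *Dio1* and *Tcp11l2* passed with the pairs, and *Npas2* went from -1.76 to 1.96 without THRBWT c. Many list medians depended on single libraries. With each ZT18 library left out in turn they ranged from -0.24 to 0.25 for the unfolded protein response, -0.05 to 0.13 for heat shock, 0.00 to 0.46 for female-biased genes, -0.30 to -0.03 for male-biased genes, 0.01 to 0.20 for glucose metabolism, 0.06 to 0.16 for clock genes, -0.00 to 0.17 for thyroid hormone targets, 0.08 to 0.15 for bile acid genes. The ranges were 0.02 to 0.16 for cholesterol synthesis, -0.09 to 0.04 for lipid droplets, -0.23 to -0.05 for acute phase genes, -0.14 to 0.03 for growth hormone and IGF signalling, 0.02 to 0.13 for acyl-CoA synthetases and thioesterases, 0.15 to 0.37 for glucocorticoid targets, -0.13 to 0.04 for urea cycle and amino acids, -0.19 to 0.10 for immediate early genes. They were -0.02 to 0.07 for pericentral genes, -0.08 to 0.14 for periportal genes, -0.01 to 0.14 for oxidative phosphorylation, -0.16 to 0.02 for stellate cell markers, -0.31 to 0.10 for lymphocyte markers, -0.33 to -0.07 for cholangiocyte markers, -0.80 to 0.14 for neutrophil markers and -0.53 to 0.30 for blood markers. The median SE of the log2 fold change, for genes with at least 1 CPM, was 0.140 at ZT18 with 6 libraries and 0.0626 for the mean of the other 5 times with 30.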
